A study of Ictidomys tridecemlineatus with 15 samples.

Results

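The genes described here encode components of insulin signalling through PI3K, AKT, the TSC complex and mTOR, and the FoxO transcription factors that this pathway controls. The 9 genes Foxo1, Foxo3, Akt1, Akt2, Pik3r1, Tsc1, Tsc2, Mtor and Rptor were looked up by name among the 6324 transcription units of the GRO-seq table, of which 4705 carried a single gene name. Of the 9 genes, 5 had a unit. Foxo1, Foxo3, Pik3r1 and Tsc1 each had a unit of their own, whereas Akt2 was on a unit merged with its neighbor Cntd2, so that reads of these 2 genes cannot be told apart. Akt1, Tsc2, Mtor and Rptor had no unit in the table, and nothing is reported on them.

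GRO-seq extends and tags transcripts on which polymerases are already at work in isolated nuclei, and therefore measures polymerases engaged on genes rather than the amount of RNA. It was applied to frozen livers of 14 female, laboratory-housed 13-lined ground squirrels from a breeding colony, all carrying implanted body temperature recorders. SA animals (n = 3) were summer active and homeothermic, sampled before hibernation began. The other animals were hibernators, taken when briefly rewarmed between torpor bouts (IBA, n = 3), while cooling into torpor (Ent, n = 3), early in a torpor bout (ET, n = 3) or late in one (LT, n = 2). For torpor, the authors propose that initiation and termination stop and that elongation goes on only very slowly. Rises and falls in ET and LT below are therefore relative levels of engaged polymerases and do not give the rate of transcription. Age was not given in the sources used here. LT replicate 2 was not analysed here, so the LT libraries are replicates 1 and 3.

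When insulin binds its receptor, receptor substrates recruit PI3K, a kinase made of a regulatory subunit such as that encoded by Pik3r1 and a catalytic subunit, and the lipid it makes activates AKT. AKT phosphorylates FoxO factors, which are then held in the cytoplasm, and it relieves the brake that the TSC complex puts on the GTPase RHEB and on mTORC1, the nutrient-sensing kinase complex that promotes protein synthesis. In the fasted liver FoxO1 is nuclear and activates genes of glucose production such as G6pc and Pck1. Much of this control acts on proteins by phosphorylation, which GRO-seq does not measure.

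The libraries held between 3713883 and 8884763 counts (median 6356356). Values below are CPM, the counts scaled to a TMM-normalized library of 1000000, and comparisons are edgeR's quasi-likelihood tests with Benjamini-Hochberg adjustment over all 6324 units and a threshold of 0.001 unless another is named. The animals came from 3 hibernation seasons. The ET animals were all from the second season, the IBA animals from the third and the LT animals from the first, and the SA and Ent groups each mixed the first and the third. In any comparison with ET, state and season cannot be told apart. IBA and LT shared no season either, so the same holds for a direct comparison of IBA with LT. Where season is a covariate below, its effect is taken from SA and Ent and assumed to be alike in every state. Of 10 hepatocyte markers 6 had a unit of their own, none was at 0 in any library, and their summed level was 9130 to 20159 CPM in SA, 8725 to 13360 in IBA, 7122 to 8184 in Ent, 3688 to 5938 in ET and 4692 to 6987 in LT. The summed level of 3 of 6 endothelial markers was 186 to 241 CPM in SA, 199 to 228 in IBA, 203 to 241 in Ent, 124 to 203 in ET and 135 to 148 in LT, with log2 changes from warm to cold of −0.68 for Pecam1, −0.86 for Kdr and 0.39 for Stab1. The cholangiocyte marker Sox9, 1 of 5, was at 25.9 to 41 CPM in SA, 16.5 to 36 in IBA, 29.8 to 46.1 in Ent, 10.9 to 18.1 in ET and 7.07 to 10.1 in LT. Markers of Kupffer cells, stellate cells, lymphocytes and erythroid cells had no unit of their own. In whole liver, fewer cells of a type and less transcription per cell cannot be told apart, and the part of the marker differences in the results below was not tested.

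The FoxO genes moved in opposite directions between the warm and the cold animals. Foxo1 rose 2.91-fold from SA and IBA to ET and LT, whereas Foxo3 fell and was 2.03-fold lower in the cold. This comparison averages SA with IBA, and Foxo3 already differed between these 2 warm states (log2 −0.99 from SA to IBA). From IBA alone Foxo3 gave −0.48 to ET (adjusted p = 0.079) and −0.58 to LT (adjusted p = 0.069), neither of which passed 0.05. Tsc1, the gene of the TSC complex subunit that stabilizes TSC2, rose 1.36-fold. The merged Akt2 unit and Pik3r1 did not pass the test in this comparison. Akt2 and Foxo3 shared another difference, in that each was higher in every SA library than in every winter library. The plot of the 5 units by library shows all 14 values of each.

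**Figure D1:**
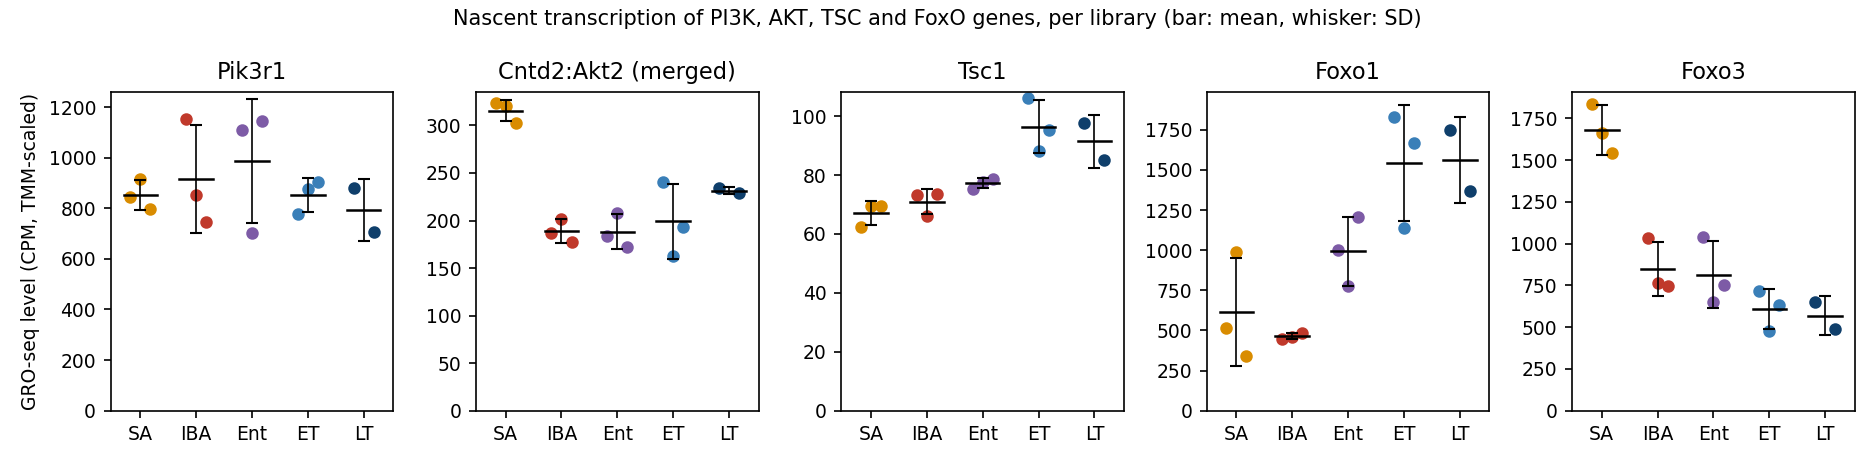
GRO-seq level of Pik3r1, the merged Cntd2:Akt2 unit, Tsc1, Foxo1 and Foxo3 in each library, in CPM on a linear axis from 0, by state. Points are libraries, bars are means and whiskers are SD (n = 3, and n = 2 for LT); Foxo1 lies at 342 to 989 CPM in SA and IBA and at 1139 to 1827 in ET and LT, and Foxo3 lies at 1540 to 1838 CPM in SA and at 1037 or less in every other library.

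Foxo1 occupied a unit on chromosome 4 of the HiC_Itri_2 genome, from 161726707 to 161828687 on the plus strand, and encodes the FoxO factor best known in liver for driving gluconeogenic genes. Its unit was 101.98 kb long, longer than 83.3% of the single-gene units, and held 1570 to 12407 counts per library. In SA replicates 1, 2 and 3 its level was 512, 989 and 342 CPM. In the IBA replicates it was 446, 459 and 484 CPM. SA replicate 2 was thus well above the other SA libraries, while the IBA libraries lay close together.

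In the Ent replicates Foxo1 was at 998, 775 and 1205 CPM. The ET replicates were at 1827, 1139 and 1666 CPM, and LT replicates 1 and 3 at 1748 and 1370 CPM. Every ET and LT library was above every SA and IBA library. Every Ent library was above every IBA library, but SA replicate 2 was within the range of Ent, and ET replicate 2 was below the highest Ent library. Mean levels were 614 ± 335 CPM for SA (SD, n = 3), 463 ± 19.3 for IBA (n = 3), 993 ± 215 (n = 3) in Ent, 1544 ± 360 (n = 3) in ET and 1559 ± 267 (n = 2) in LT. In the order LT, ET, Ent, SA, IBA, the ranges of each pair of neighbors overlapped.

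The rise of Foxo1 from warm to cold was 1.54 on the log2 scale (SE 0.24, adjusted p = 1.2e-04), and it passed in each of the 14 fits that left out a library. Of the 5 measured genes, 3 passed in this comparison, against a background of 36.3% of all units (18.6% higher and 17.6% lower in the cold). The same 3 did not overlap between the 6 warm and the 5 cold libraries, against 40.5% of all units. No season other than the first held both warm and cold animals, and in it SA replicate 1 had 512 CPM of Foxo1 beside the 1748 and 1370 CPM of LT, without a test. GRO-seq levels differed between warm and cold animals at many units, and a share of this size among 5 genes is no result about the pathway.

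Along the torpor cycle, Foxo1 was 2.14-fold higher in Ent than in IBA (log2 fold change 1.10, SE 0.32, adjusted p = 0.037), which passed a threshold of 0.05 only. It was the 1 gene of the 5 to do so, where 16.1% of all units did. At 0.001 0 of the 5 passed in edgeR or in DESeq2 and 1 had an unadjusted p under 0.05, where 0.0316% of units passed in edgeR, 7.07% in DESeq2 and 32.5% by unadjusted p. With season as a covariate the value was 1.36 (adjusted p = 0.042). The further step from Ent to ET was 0.64 (SE 0.32, adjusted p = 0.157). From IBA to ET Foxo1 rose 3.33-fold (log2 1.74, SE 0.33, adjusted p = 7.8e-04), where 22.9% of all units passed. This call was lost in 10 of the 14 fits that left out a library, with adjusted p up to 0.0045 without IBA replicate 1.

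From IBA to LT the difference in Foxo1 was of the same size, 3.37-fold (log2 1.75, SE 0.35), at an adjusted p of 0.0015 that did not pass 0.001. Of the 5 genes, 0 passed 0.001 in edgeR in this comparison and 1, Foxo1, in DESeq2, and 3 had an unadjusted p under 0.05. All units passed at a rate of 17.4%, or 49.8% at 0.05, 31.9% in DESeq2 and 56.4% by unadjusted p. Without SA replicate 2 the Foxo1 value was 1.75 with an adjusted p of 1.5e-04, and without SA replicate 3 it was 1.75 with 4.7e-04, so that both then passed. Season as a covariate gave 2.16 (adjusted p = 0.005).

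Foxo1 was 2.52-fold higher in ET than in SA (log2 1.33, SE 0.33, adjusted p = 0.0043) and 2.54-fold higher in LT than in SA (log2 1.35, SE 0.35, adjusted p = 0.0075). Neither passed 0.001 in edgeR, and both did in DESeq2 (adjusted p = 1.3e-04 and 6.4e-04). In edgeR both passed once SA replicate 2, the SA library with the high Foxo1 value, was left out (log2 1.86 and 1.87, adjusted p = 1.9e-04 and 3.1e-04). SA and IBA did not differ detectably in Foxo1 (log2 −0.41, SE 0.32, adjusted p = 0.512), and the sign depended on SA replicate 2, without which the value was 0.12. Within the first season, which holds 2 Ent and both LT libraries, the Ent to LT value of Foxo1 was 0.81 (SE 0.24, adjusted p = 0.052), beside 0.65 (SE 0.35, adjusted p = 0.189) over all libraries. Over the 5 states together its adjusted p was 0.0018.

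Foxo3, which encodes the FoxO factor linked with stress resistance and autophagy, lay on chromosome 8 from 100513817 to 100640327 on the plus strand. At 126.51 kb its unit was longer than 87.8% of the single-gene units, and it held 2423 to 12960 counts per library. Its level was 1838, 1660 and 1540 CPM in SA replicates 1, 2 and 3. In the IBA replicates it was 1033, 762 and 746 CPM, and in the Ent replicates 1037, 652 and 754 CPM. All SA libraries stood above all 11 winter libraries, whereas IBA and Ent covered nearly the same range.

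The ET replicates had 716, 476 and 631 CPM of Foxo3, and LT replicates 1 and 3 had 650 and 486 CPM. Every cold library was below every IBA library, and ET overlapped with Ent and with LT. The means were 1679 ± 150 (SD, n = 3) in SA, 847 ± 162 (n = 3) in IBA, 814 ± 200 (n = 3) in Ent, 608 ± 122 (n = 3) in ET and 568 ± 116 (n = 2) in LT. Of the neighbors in this order, SA and IBA did not overlap and the others did.

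Foxo3 was the 1 gene of the 5 that passed over the 5 states together (adjusted p = 3.3e-04), where 25.5% of all units passed. At 0.05 all but Pik3r1 passed, beside 62.0% of units. The Foxo3 call was kept in 9 of the 14 fits with a library left out, and was lost without any one of the 3 SA libraries, without ET replicate 3 and without LT replicate 3, where adjusted p was between 0.001 and 0.0019. Foxo3 fell by 1.02 on the log2 scale from warm to cold (SE 0.17, adjusted p = 1.6e-04). Without LT replicate 3 this value was −0.92 with an adjusted p of 0.002, which did not pass.

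From SA to IBA, both warm states, Foxo3 was 1.98-fold lower in IBA (log2 −0.99, SE 0.22, adjusted p = 0.02), which passed 0.05 and not 0.001. In this comparison 0 of the 5 genes passed 0.001 in edgeR, where 0.0158% of units did. At 0.05 in edgeR 2 of the 5, Foxo3 and Akt2, passed, both lower, beside 5.22% of units in either direction and 2.85% lower; these 2 were also those with an unadjusted p under 0.05, as 22.0% of units had. DESeq2 passed the same 2 at 0.001 (adjusted p = 3.8e-04 for Foxo3 and 3.8e-05 for Akt2), beside 3.49% of units. Within the third season, with 2 SA and 3 IBA libraries, the Foxo3 value was −0.92 (SE 0.21, adjusted p = 0.082), and with season as a covariate it was −0.92 (adjusted p = 0.043).

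Foxo3 fell from SA to ET 2.76-fold (log2 −1.47, SE 0.22, adjusted p = 1.7e-04) and from SA to LT 2.96-fold (log2 −1.56, SE 0.26, adjusted p = 4.1e-04). In edgeR it was the 1 gene of the 5 to pass in each, where 21.5% and 15.7% of units passed. At 0.05 in edgeR all but Pik3r1 passed in each, beside 53.2% and 49.2% of units. In DESeq2 4 of the 5, all but Pik3r1, passed 0.001 from SA to ET, beside 36.1% of units. From SA to LT 2, Foxo1 and Foxo3, did so, beside 31.4%. Without ET replicate 2 or 3 the SA to ET call was lost at an adjusted p of 0.001 when rounded, and without SA replicate 1, LT replicate 1 or LT replicate 3 the SA to LT call was lost, with adjusted p of 0.0013, 0.0032 and 0.0087. With season as a covariate the SA to LT value was −1.68 at an adjusted p of 0.001, just over the threshold. SA to Ent gave −1.04 (SE 0.22, adjusted p = 0.0065), and −1.10 with season as a covariate. From SA to Ent 0 of the 5 genes passed 0.001 in edgeR, where 0.775% of units did, and 2, Foxo3 and Akt2, passed it in DESeq2, beside 10.2%. The same 2 passed 0.05 in edgeR, beside 23.5% of units, and had an unadjusted p under 0.05, beside 37.1%. Among the winter states, IBA to ET gave −0.48 (SE 0.22, adjusted p = 0.079), IBA to LT −0.58 (SE 0.25, adjusted p = 0.069) and Ent to ET −0.42 (SE 0.22, adjusted p = 0.165), none of which passed. From Ent to LT 0 of the 5 genes passed in edgeR or in DESeq2 and 0 had an unadjusted p under 0.05, where 2.29%, 14.3% and 39.8% of units did so. The Ent to LT value was −0.52 (SE 0.25, adjusted p = 0.134), and −0.57 (adjusted p = 0.186) within the first season. With uniquely mapped reads as the library size IBA to ET was −0.22 (adjusted p = 0.390) and IBA to LT −0.39 (adjusted p = 0.180). Over all libraries Foxo3 was thus lower in every winter state than in SA at 0.05 or better. Within the third season SA to IBA did not pass 0.05, and from SA to ET state and season cannot be told apart. The further step of Foxo3 from IBA into torpor did not pass although the cold libraries lay below those of IBA.

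The comparison of changes between states shows the 5 units side by side. From ET to LT none of the 5 passed in edgeR or in DESeq2, 0 had an unadjusted p under 0.05, and their libraries overlapped in every case. Of all units, 0 passed 0.001 in edgeR in this comparison, 0.585% passed it in DESeq2, 0.269% passed 0.05 and 8.70% had an unadjusted p under 0.05. From Ent to ET none passed in edgeR or in DESeq2 and 1, Tsc1, had an unadjusted p under 0.05, where 2.21%, 14.8% and 40.5% of units did so.

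**Figure D2:**
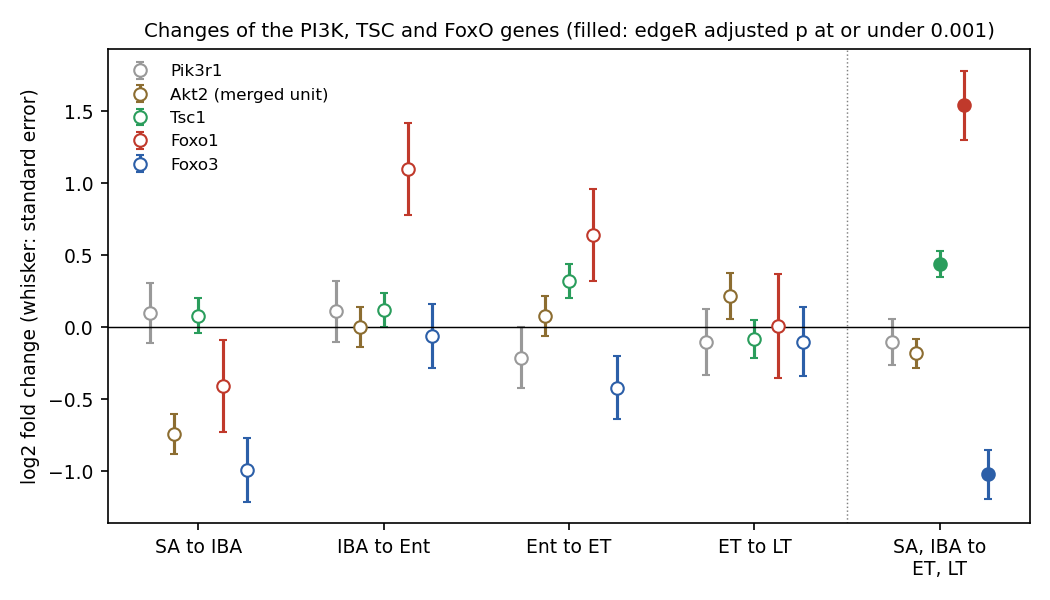
Log2 fold changes of the 5 units between successive states and, right of the dotted line, from SA and IBA to ET and LT. Whiskers are standard errors of the edgeR fit and filled points have an adjusted p at or under 0.001; only Foxo1 (1.54), Foxo3 (−1.02) and Tsc1 (0.44) are filled, all in the warm to cold comparison.

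Since both genes were counted in the same library, the ratio of Foxo1 to Foxo3 reads per kb does not depend on how libraries are scaled. The ratio was examined after the values of both genes had been seen, and it is given as a description without a test. It was 0.345, 0.739 and 0.275 in SA replicates 1, 2 and 3, and 0.536, 0.747 and 0.805 in the IBA replicates. In the Ent replicates it was 1.19, 1.48 and 1.98. In the ET replicates it was 3.16, 2.97 and 3.27, and in LT replicates 1 and 3 it was 3.33 and 3.5. Foxo3 thus had more reads per kb than Foxo1 in all 6 warm libraries and fewer in all 8 libraries of Ent, ET and LT. The Ent libraries lay between the warm and the cold ones without overlap, and the spread within ET (3.14 ± 0.154, SD, n = 3) and LT (3.42 ± 0.115, n = 2) was small beside the distance to Ent (1.55 ± 0.4, n = 3). SA (0.453 ± 0.25, n = 3) and IBA (0.696 ± 0.142, n = 3) overlapped. In per-length levels, Foxo1 had 4.54 ± 0.189 CPM per kb in IBA and 15.3 ± 2.62 in LT, and Foxo3 had 6.7 ± 1.28 and 4.49 ± 0.918.

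**Figure D3:**
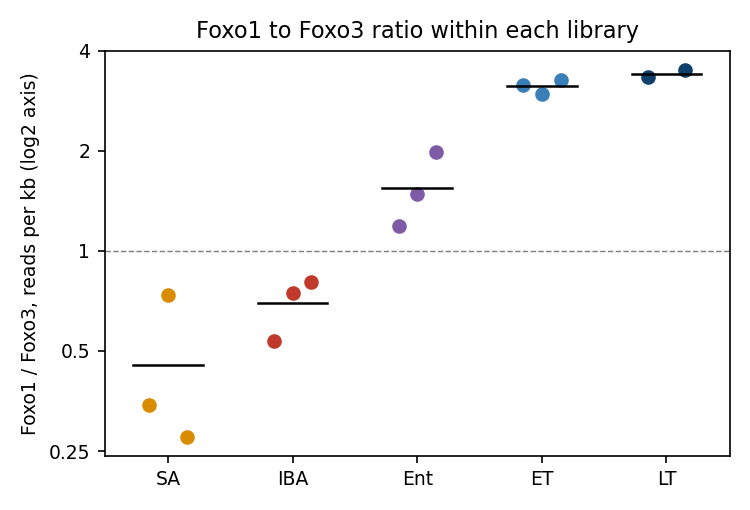
Foxo1 reads per kb divided by Foxo3 reads per kb in each library, on a log2 axis, by state. Points are libraries and bars are state means; the ratio is under 1 in all 6 SA and IBA libraries, 1.19 to 1.98 in Ent and 2.97 to 3.5 in ET and LT.

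Pik3r1 encodes p85alpha, the regulatory subunit that recruits PI3K to phosphorylated receptor substrates. Its unit lay on chromosome 1 from 192244644 to 192336529 on the minus strand, was 91.89 kb long and held 3330 to 8409 counts per library. Its level was 845, 916 and 796 CPM in the SA replicates, 1153, 851 and 744 CPM in the IBA replicates and 1110, 704 and 1145 CPM in the Ent replicates. It was 777, 876 and 905 CPM in the ET replicates and 881 and 707 CPM in LT replicates 1 and 3. The ranges of all 5 states overlapped, with the lowest and the second highest library in 1 and the same state, Ent. Over the 5 states its adjusted p was 0.709. The most distant pair of means, 986 ± 245 (SD, n = 3) in Ent and 794 ± 123 (n = 2) in LT, differed by −0.31 on the log2 scale (SE 0.23, adjusted p = 0.338), and by −0.19 within the first season (adjusted p = 0.620). With 9.28 ± 0.654 CPM per kb in SA, Pik3r1 was transcribed at a level per kb between those of Foxo1 (6.02 ± 3.29) and Foxo3 (13.3 ± 1.19).

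The Cntd2:Akt2 unit lay on chromosome 16 from 14213386 to 14273177 on the minus strand, was 59.79 kb long and held 659 to 2553 counts per library. Akt2 is the AKT kinase that carries most of the insulin response of the liver, and Cntd2 is a cyclin-domain gene. The level of the unit was 324, 320 and 303 CPM in SA replicates 1, 2 and 3. It was 187, 202 and 177 CPM in the IBA replicates, 184, 208 and 172 CPM in the Ent replicates and 241, 163 and 193 CPM in the ET replicates. LT replicates 1 and 3 had 234 and 229 CPM. The SA libraries were all above the winter libraries, which overlapped with each other except that LT was above IBA and Ent.

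From SA to IBA the Akt2 unit was 1.68-fold lower (log2 −0.74, SE 0.14, adjusted p = 0.0095), which passed 0.05 and not 0.001. The value was −0.73 (SE 0.13, adjusted p = 0.049) within the third season. The difference was 1.68-fold in Ent (log2 −0.75, SE 0.14, adjusted p = 0.0037), 1.58-fold in ET (log2 −0.66, SE 0.14, adjusted p = 0.0017) and 1.36-fold in LT (log2 −0.45, SE 0.16, adjusted p = 0.033). These comparisons share the SA libraries. The values for the cold states depended on scaling. With uniquely mapped reads as the library size SA to ET was −0.40 (adjusted p = 0.016) and SA to LT −0.26 (adjusted p = 0.145), and with total counts SA to LT was −0.32 (adjusted p = 0.104), so that SA to LT then did not pass 0.05. Over the 5 states the adjusted p of the unit was 0.0016. Without ET replicate 1, the highest winter library of this unit, the SA to ET value was −0.83 with an adjusted p of 4.2e-04, and passed, as did the unit over the 5 states (adjusted p = 4.1e-04). Every SA library was above every winter library at 2 of the 5 units, Akt2 and Foxo3, and at 3.92% of all units. From warm to cold, a comparison that averages SA with IBA, the Akt2 unit did not pass (adjusted p = 0.143).

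Tsc1 encodes hamartin, which with TSC2 forms the GTPase-activating complex that holds RHEB and mTORC1 in check. Its unit lay on chromosome 3 from 199563116 to 199618275 on the minus strand, was 55.16 kb long and had the lowest counts of the 5, 253 to 717 per library. Its level was 62.4, 69.6 and 69.4 CPM in the SA replicates, 73.3, 66.1 and 73.4 CPM in the IBA replicates and 75.4, 77.6 and 78.7 CPM in the Ent replicates. It was 106, 88 and 95.3 CPM in the ET replicates and 97.8 and 85 CPM in LT replicates 1 and 3. The libraries therefore lay in 3 groups without overlap, SA and IBA lowest, Ent next and ET and LT highest, but the differences were small. In edgeR, IBA to Ent gave a log2 value of 0.12 (SE 0.12, adjusted p = 0.502). SA to Ent gave 0.20 (SE 0.12, adjusted p = 0.234) and Ent to LT 0.24 (SE 0.13, adjusted p = 0.181). None of these passed. IBA and Ent libraries did not overlap at 43.4% of all units. A step from the warm states to Ent thus rests on the order of the libraries alone.

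Tsc1 rose by 0.44 on the log2 scale from warm to cold (SE 0.09, adjusted p = 7.1e-04). The size of this change hardly moved when a library was left out (0.39 to 0.49), but its call was lost in 12 of these 14 fits, with adjusted p up to 0.0058 without LT replicate 1. Scaling mattered more, since uniquely mapped reads as the library size gave 0.67 (adjusted p = 2.3e-05). Between single states, SA to ET gave 0.52 (SE 0.12, adjusted p = 0.0026), IBA to ET 0.44 (SE 0.12, adjusted p = 0.007), SA to LT 0.44 (SE 0.13, adjusted p = 0.013) and IBA to LT 0.37 (SE 0.13, adjusted p = 0.033). All of these passed 0.05 and not 0.001 in edgeR with TMM. In DESeq2 SA to ET and IBA to ET passed 0.001 (adjusted p = 4.7e-05 and 4.3e-04), and SA to LT and IBA to LT did not (0.0019 and 0.009). With uniquely mapped reads as the library size SA to ET was 0.79 and IBA to ET 0.70, and both passed 0.001 (adjusted p = 1.2e-04 and 2.8e-04). From IBA to ET 2 of the 5 genes, Foxo1 and Tsc1, passed 0.05, beside 55.2% of units. With season as a covariate IBA to LT was 0.46 (adjusted p = 0.069). From Ent to ET Tsc1 gave 0.32 (SE 0.12, adjusted p = 0.058), and passed 0.05 with total counts (0.37, adjusted p = 0.033) and with uniquely mapped reads (0.43, adjusted p = 0.014). Its level per kb, 1.22 ± 0.074 CPM in SA and 1.75 ± 0.16 in ET, was the lowest of the 5 units in both states.

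The units nearest upstream on the same strand were examined, since reads that run on past the end of one gene can enter the next. Upstream of Foxo1, Mrps31 ended 32.8 kb away, rose by 0.65 from warm to cold (SE 0.13, adjusted p = 9.0e-04) and had 1.03 CPM per kb over all libraries, beside 9.78 for Foxo1. Upstream of Foxo3, Afg1l ended 33.4 kb away, fell by 1.29 (SE 0.13, adjusted p = 3.8e-06) and had 0.375 CPM per kb, beside 7.33 for Foxo3. Both neighbors moved in the direction of the FoxO gene and were at a lower density. Nearer to Foxo3, LOC106145042 lay 1.2 kb upstream on the other strand, with a value of −0.65 (SE 0.22, adjusted p = 0.023) and 2.24 CPM per kb, and whether the counting used strand is not given in the sources used here. Tsc1 had Ralgds 89.0 kb upstream, with a value of 0.82 (adjusted p = 0.048) and 0.816 CPM per kb beside 1.45 for Tsc1. The Akt2 unit had a denser neighbor, the merged unit Sertad3:Blvrb:G12285, 96.9 kb upstream, with −0.51 (SE 0.14, adjusted p = 0.0068) and 5.03 CPM per kb beside 3.75. For Pik3r1 the nearest was Mast4, 859.7 kb away, with −0.21 (SE 0.09, adjusted p = 0.051). The part of reads from these neighbors in the values above was not tested.

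Many units followed Foxo1, Tsc1 and Foxo3 over the 14 libraries, and very few followed Pik3r1. By Pearson's r of log2 CPM, the single-gene units most like Foxo1 were Ptpn11 (r = 0.977), which encodes the phosphatase SHP2, and Derl1 (r = 0.960). Those most like Foxo3 were Kcnk5 (r = 0.958) and Zfyve1 (r = 0.947). For Tsc1 they were Ube2l3 (r = 0.960) and Nol10 (r = 0.942), and for Pik3r1 Stim2 (r = 0.888) and a unit named only by an Ensembl identifier, ENSSTOG00000030463 (r = 0.761). Units at r of 0.8 or more numbered 490 for Foxo1, 572 for Tsc1, 163 for Foxo3 and 1 for Pik3r1. These libraries share their states, so that a unit that differs between warm and cold animals can correlate with Foxo1 in either direction. Foxo3 had an r of −0.55 with Foxo1.

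Around these genes, a list of 167 other genes of the pathway in 11 roles was counted. Of the 167, 70 had a unit of their own, 38 were on merged units and 59 had none. Over the 5 states 12 of the 70 passed (17.1%, beside 26.4% of the 4705 single-gene units). From warm to cold 8 rose, 10 fell and 52 did not pass (25.7% passed, beside 37.0% of single-gene units, 859 of which rose and 881 of which fell). The number that passed from warm to cold was 9 without LT replicate 1, and the number over the 5 states was 5 to 7 without IBA replicate 1 or 2, Ent replicate 2 or any ET or LT library. The list had a median log2 fold change of −0.05 and all single-gene units one of −0.07. From SA to IBA 0 of the 70 passed in edgeR, beside 1 of the 4705 single-gene units, and 1 (1.43%) did in DESeq2, beside 3.72%. At 0.05 in edgeR 4 of the 70 (5.71%) passed, 2 higher and 2 lower, beside 5.57%, and 17 (24.3%) had an unadjusted p under 0.05, beside 23.4%. The plot of changes by role shows where the genes that passed lay, and all of them are named here, including those outside the naming rule (Trib1, Tti1, Tti2, Pdcd4, Bcl6, Sod2 and Bnip3), which were chosen after their values were seen.

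**Figure D4:**
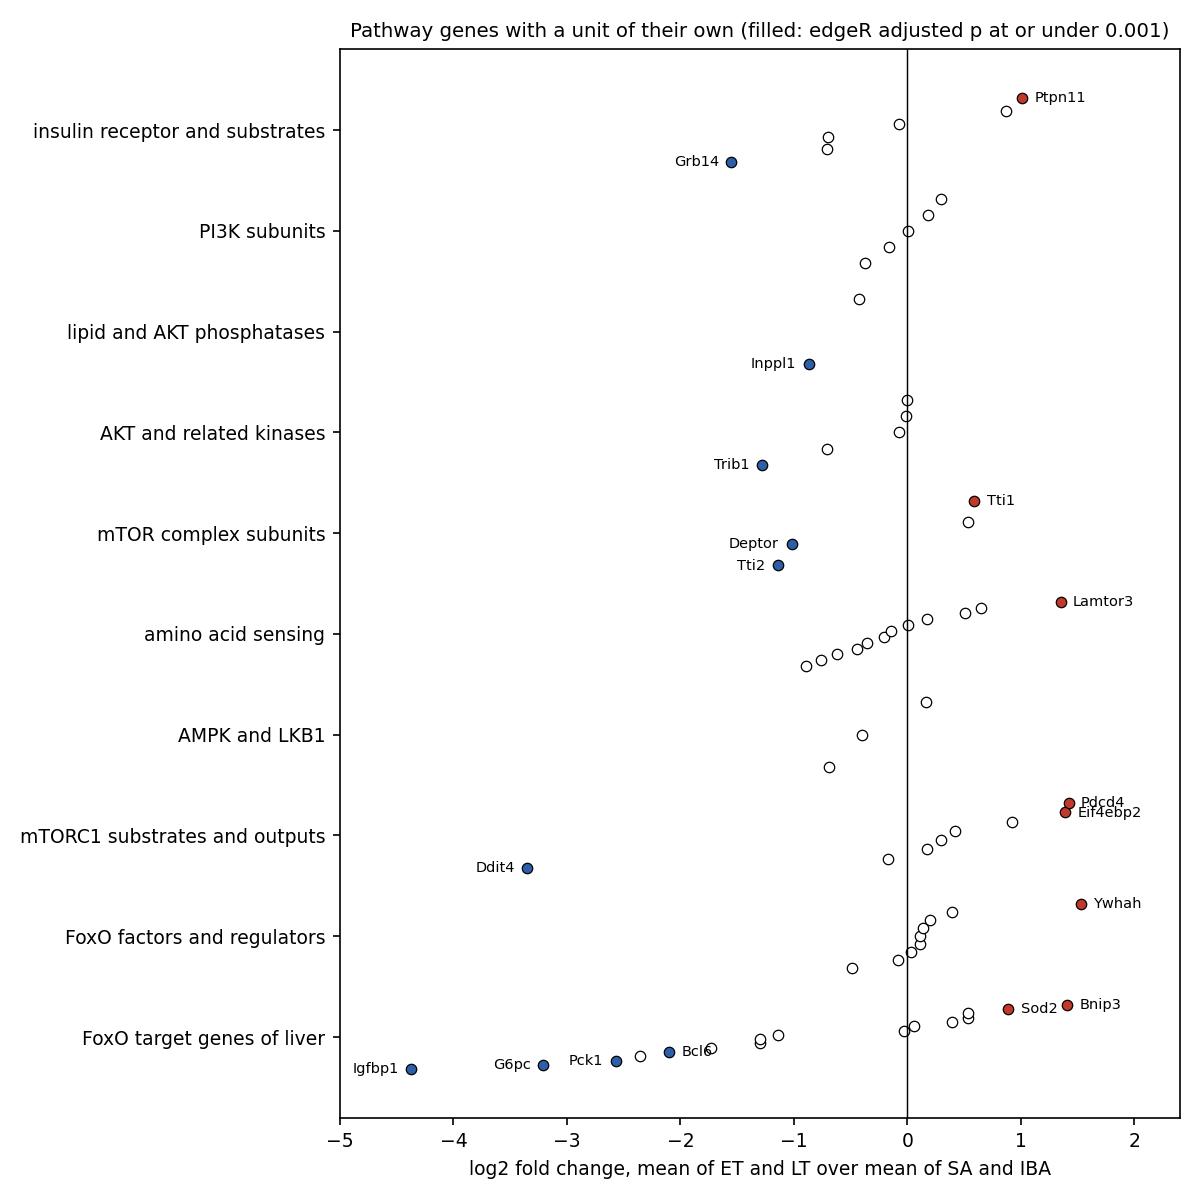
Log2 fold change from SA and IBA to ET and LT of the 70 pathway genes with a unit of their own, 1 row per role, points spread vertically for visibility. Red points rose and blue points fell at an adjusted p at or under 0.001, and open points did not pass; the largest falls are those of Igfbp1 (−4.37), Ddit4 (−3.35) and G6pc (−3.21).

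At the insulin receptor and its substrates, 1 of 6 genes rose, 1 fell and 4 did not pass. The share that passed was 33.3%, beside 37.0% of single-gene units, and 66.7% in DESeq2, beside 48.9%. Grb14, an adaptor that inhibits the receptor, fell 2.93-fold (log2 −1.55, SE 0.13, adjusted p = 1.0e-06), starting from 326 ± 29.4 CPM in SA (SD, n = 3) and from 522 ± 61.9 in IBA (n = 3) and ending at 140 ± 32.8 in ET (n = 3) and 142 ± 10.9 in LT (n = 2). Ptpn11 rose 2.01-fold (log2 1.01, SE 0.15, adjusted p = 6.7e-05). Insr itself had −0.70 (SE 0.17, adjusted p = 0.0027) and Irs2, a receptor substrate that FoxO1 is known to activate, had 0.87 (SE 0.24, adjusted p = 0.0059), neither of which passed 0.001. For Irs2 the ET replicates were far apart, at 266, 77.2 and 167 CPM. Irs1, on a unit merged with an unnamed gene model, G32485, had −0.86 (SE 0.23, adjusted p = 0.0059).

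Of the PI3K subunits, which included the class II catalytic subunits, 0 of 5 passed in edgeR or in DESeq2, and 1 had an unadjusted p under 0.05, where 37.0%, 48.9% and 68.3% of single-gene units did so by these measures. Pik3ca had no unit. Of the phosphatases, Inppl1, which encodes the lipid phosphatase SHIP2, fell 1.82-fold (log2 −0.87, SE 0.13, adjusted p = 1.0e-04). Among AKT-related kinases and AKT targets, Trib1, a pseudokinase gene, fell (log2 −1.28, SE 0.19, adjusted p = 9.2e-05) and 4 of 5 did not pass. The share that passed was 20.0% in edgeR and in DESeq2, beside 37.0% and 48.9% of single-gene units. Inppl1 and Trib1 lost their calls without LT replicate 1 (highest adjusted p 0.0013 and 0.0012).

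Among mTOR complex genes 1 of 4 rose and 2 fell. The share that passed was 75.0%, beside 37.0% of single-gene units, and 100% in DESeq2, beside 48.9%. A share among 4 genes is no result about these complexes. Deptor, an inhibitor of mTOR, fell 2.02-fold (log2 −1.02, SE 0.17, adjusted p = 1.9e-04). Its level was 106, 59.1 and 130 CPM in the SA replicates, 176, 216 and 184 CPM in the IBA replicates and 94.8, 90.6 and 100 CPM in the Ent replicates, and then 65.8, 61.3 and 70.1 CPM in ET and 62.4 and 78.5 CPM in LT. IBA thus stood above every other state, and SA replicate 2 was the lowest library of all. From IBA to Ent Deptor gave −1.02 (SE 0.22, adjusted p = 0.011) and from SA to IBA 0.96 (SE 0.22, adjusted p = 0.025). Without LT replicate 1 its warm to cold call was lost (adjusted p = 0.0023). Tti1 and Tti2, which encode partners in a complex that helps assemble mTOR, had 0.59 (SE 0.09, adjusted p = 1.1e-04) and −1.14 (SE 0.18, adjusted p = 1.5e-04), and the call of Tti2 was lost without either LT library (adjusted p up to 0.0013). Rictor, the defining subunit of mTORC2, had 0.53 (SE 0.13, adjusted p = 0.003). Rheb, on a unit merged with the gene model G15701, rose 1.95-fold (log2 0.97, SE 0.08, adjusted p = 7.5e-07), beside the rise of Tsc1, whose product restrains RHEB.

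In amino acid sensing 1 of 12 genes passed, beside 37.0% of single-gene units, and 3 did in DESeq2, beside 48.9%. In edgeR 8 of the 12 (66.7%) passed at 0.05, beside 65.1% of single-gene units. Lamtor3, a subunit of the Ragulator scaffold that brings mTORC1 to the lysosome, rose 2.55-fold (log2 1.35, SE 0.14, adjusted p = 4.7e-06), from 39.7 ± 4.11 CPM in SA to 117 ± 22 in ET (n = 3 each). Of 3 genes of AMPK and its upstream kinase LKB1, 0 passed in edgeR and 1 in DESeq2, and 2 had an unadjusted p under 0.05, where 48.9% and 68.3% of single-gene units did so in DESeq2 and by unadjusted p.

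Among mTORC1 substrates and outputs 2 of 8 rose and 1 fell. The share that passed was 37.5% in edgeR and in DESeq2, beside 37.0% and 48.9% of single-gene units. Eif4ebp2, a repressor of cap-dependent translation that mTORC1 inactivates, rose 2.62-fold (log2 1.39, SE 0.14, adjusted p = 4.4e-06). Its level was 140 to 242 CPM in the 6 warm libraries and 428 to 643 CPM in the 5 cold ones. Pdcd4, another translation repressor, rose by 1.42 (SE 0.22, adjusted p = 1.2e-04). Ddit4, which encodes the stress-induced mTORC1 inhibitor REDD1, fell 10.2-fold (log2 −3.35, SE 0.64, adjusted p = 5.6e-04). Its SA replicates were far apart, at 505, 175 and 63.6 CPM, the IBA replicates were at 20.5, 39.3 and 34.8 CPM, and the cold libraries at 13.3 CPM or less. The Ddit4 call was lost in 7 of the 14 fits that left out a library, those without IBA replicate 2 or 3 or any ET or LT library, with adjusted p up to 0.006. From SA to IBA Ddit4 gave −2.96 (SE 0.78, adjusted p = 0.045).

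Among FoxO regulators 1 of 9 passed from warm to cold. The share was 11.1%, beside 37.0% of single-gene units, and 22.2% in DESeq2, beside 48.9%. Ywhah, which encodes a 14-3-3 protein of the family that binds phosphorylated FoxO, rose 2.88-fold (log2 1.53, SE 0.16, adjusted p = 5.6e-06), with levels (± SD) of 16.5 ± 3.08 CPM in the 3 SA, 16 ± 1.53 in the 3 IBA, 45.6 ± 4.25 in the 3 ET and 48 ± 3.73 in the 2 LT libraries. Xpo1, the nuclear export receptor used by FoxO proteins, passed over the 5 states (adjusted p = 7.5e-04) but not from warm to cold (log2 0.03, SE 0.12, adjusted p = 0.848). Its means were 157 CPM in SA, 118 in IBA, 75.2 in Ent, 115 in ET and 166 in LT. Ent, the lowest, is not part of the warm to cold comparison. From IBA to Ent Xpo1 gave −0.65 (SE 0.16, adjusted p = 0.021). The Xpo1 call was lost in 11 of the 14 fits that left out a library, with adjusted p up to 0.0035.

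Of 16 known FoxO target genes of liver with a unit of their own 2 rose, 4 fell and 10 did not pass. The share that passed in edgeR, 37.5%, was near the 37.0% of all single-gene units. In DESeq2 the share was 62.5%, beside 48.9%. At 0.05 in edgeR it was 75.0%, beside 65.1%, with 3 genes higher and 9 lower in the cold. The median log2 fold change was −1.22 beside −0.07 over all single-gene units, with members from −4.37 to 1.41. All 6 hepatocyte markers with a unit of their own also fell, by log2 values from −2.25 (Ttr) to −0.23 (Apob). Whether the FoxO targets fell more than other genes of hepatocytes was not tested. Igfbp1, which encodes a binding protein that sequesters IGFs, fell 20.7-fold (log2 −4.37, SE 0.65, adjusted p = 7.5e-05). Its level was 2354, 226 and 1150 CPM in the SA replicates, 3222, 1477 and 1837 CPM in IBA and 600, 371 and 1009 CPM in Ent. In ET it was 59.6, 35.5 and 160 CPM and in LT 94.6 and 54.2 CPM. The cold libraries were thus all below the warm ones, although SA replicate 2 was close to the highest cold library.

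G6pc, the glucose-6-phosphatase gene that completes glucose production, fell 9.25-fold (log2 −3.21, SE 0.38, adjusted p = 1.1e-05). It was at 371 to 2041 CPM in SA, 1319 to 1719 CPM in IBA, 611 to 1068 CPM in Ent, 158 to 216 CPM in ET and 96.6 to 150 CPM in LT. Pck1, the gene of the gluconeogenic enzyme PEPCK, fell 5.92-fold (log2 −2.57, SE 0.35, adjusted p = 3.6e-05), and its Ent level of 1716 ± 325 CPM (SD, n = 3) was as high as that in IBA, 1539 ± 488 (n = 3), before the 263 ± 149 (n = 3) of ET. SA replicate 2, the SA library highest in Foxo1, was the lowest of the SA libraries in Igfbp1, G6pc and Pck1. Bcl6, a repressor gene, fell (log2 −2.10, SE 0.33, adjusted p = 1.1e-04), whereas Sod2, the mitochondrial superoxide dismutase gene, rose (log2 0.89, SE 0.16, adjusted p = 2.8e-04), as did Bnip3, a gene of mitochondrial autophagy (log2 1.41, SE 0.24, adjusted p = 2.2e-04). Without LT replicate 1 the calls of Igfbp1, Bcl6, Sod2 and Bnip3 were lost, with adjusted p between 0.0013 and 0.0019 as their highest, and those of Igfbp1, Bcl6 and Sod2 were also lost without LT replicate 3 and that of Sod2 without IBA replicate 1. The calls of G6pc and Pck1 were kept in all 14 fits. The Foxo1 unit rose in the same cold libraries in which Igfbp1, G6pc and Pck1 fell.

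**Figure D5:**
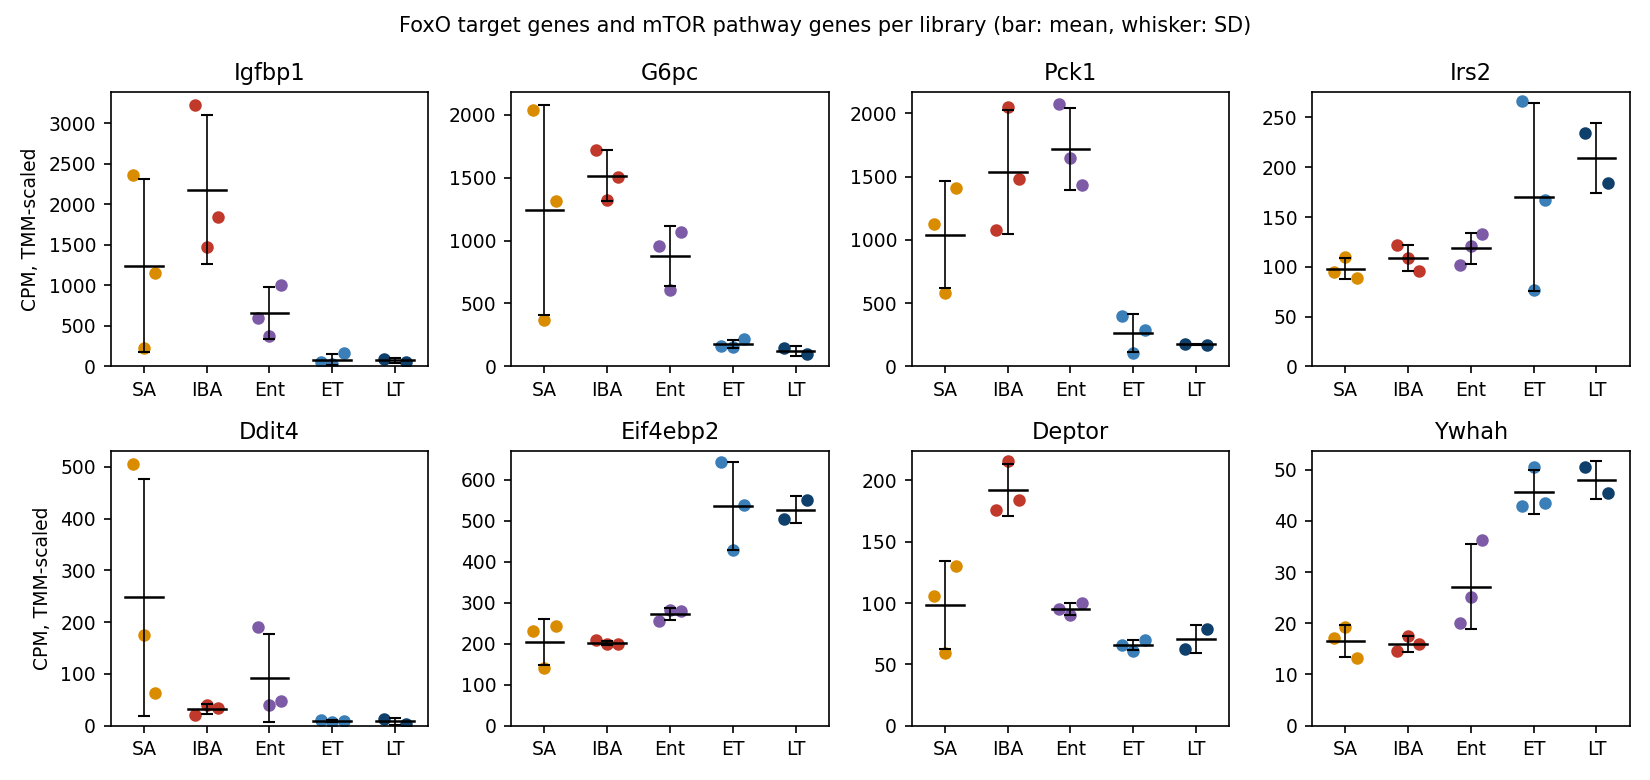
GRO-seq level in CPM, on linear axes from 0, of 8 pathway genes in each library by state, with means and SD. Igfbp1, G6pc and Pck1 are lowest in ET and LT, Eif4ebp2 and Ywhah are highest there, Deptor is highest in IBA (176 to 216 CPM), and the Ddit4 values of SA range from 63.6 to 505 CPM.

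The direction of these changes depends on a scaling in which the typical unit does not change. With TMM, all units had a median log2 change of −0.04 from warm to cold, and of those that passed 51.3% were higher in the cold. With uniquely mapped reads as the library size these values were 0.18 and 68.5%. Foxo1, Foxo3, Tsc1 and the named pathway genes that passed kept their signs under every scaling tried. Each of these scalings is relative to the reads of a library, so none can show a change in total transcription. The authors state that scaling by library size hides shifts in total transcriptional activity between states. Whether the absolute transcription of a gene rose or fell in the cold was not tested.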

How the data were processed

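The authors trimmed the GRO-seq reads with cutadapt, aligned them with BWA to the HiC_Itri_2 genome, redefined gene bodies from the reads, left out the stretch after each transcription start, merged overlapping genes and counted reads per unit with featureCounts. What they deposited is the count of reads on each unit, with no normalization. Whether counting used strand is not given in the sources used here. Nor are the versions of cutadapt, BWA and featureCounts.

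Gene names were split at the colons of merged units and matched without regard to case, and all 9 symbols were in the RefSeq gene table. Counts were scaled by TMM and fitted in edgeR 4.0.16 (R 4.3.3) with 1 quasi-likelihood model of 5 states over 14 libraries and 6324 units. Groups were tested together, in pairs, and as ET and LT against SA and IBA, with Benjamini-Hochberg adjustment. No unit was filtered. Per-kb levels divide CPM by unit length. Log2 CPM used a prior count of 2. Each value was also computed with other scalings, with DESeq2 1.42.0 and with voom (limma 3.58.1), and with other filters, season, replicate number as a block, an adjusted p of 0.05, and each library left out. The additional pairs SA to Ent, SA to ET, SA to LT and IBA to ET and the Foxo1 to Foxo3 ratio were chosen after seeing the data. Season was taken from the study's table of animals. Each library is 1 animal. Tests were checked on simulated data. Python 3.11.15 with pandas 2.3.3 and matplotlib 3.10.9 made summaries and plots.

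The genes and lists were chosen with earlier results of these data known. The text names every measured gene of the 9, and, for each role of the pathway list, the single-gene units that passed over the 5 states (at most the 3 largest rises and 3 largest falls from warm to cold), with Rictor, Pik3ca, Irs1, Irs2, Insr, Rheb and Deptor whatever their values, and the 2 units most correlated with each gene that had its own unit. 1 further gene of this rule is not reported here.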

Additional observations from a re-analysis of the deposited data

How the results depend on the processing

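Of 714 recomputed values of 29 results, 648 kept their direction and side of the threshold, 31 lost a call, 34 gained one and 1 reversed: Foxo1 from SA to IBA was 0.12 without SA replicate 2 (−0.70 to 0.12 with a library left out). Of the 5 measured genes, the number that passed over the 5 states was 3 with uniquely mapped reads as library size, 4 with DESeq2, 4 at an adjusted p of 0.05, and 0 to 2 with a library left out. Among all 6324 units, 3164 passed over the 5 states with DESeq2 and 3924 at 0.05. From SA to IBA the number of the 5 genes that passed was 2 with DESeq2 and 2 at 0.05, and from IBA to Ent 1 at 0.05. From IBA to LT it was 1 with total counts, 1 with uniquely mapped reads, 1 with DESeq2, 2 at 0.05 and 0 to 1 with a library left out. From warm to cold it was 1 to 3 with a library left out (1 without LT replicate 3). Of the 70 pathway genes, 31 (44.3%, beside 51.4% of single-gene units) passed over the 5 states with DESeq2, 39 (55.7%, beside 63.3%) at 0.05 and 5 to 12 with a library left out. From warm to cold these were 30 (42.9%, beside 48.9%), 44 (62.9%, beside 65.1%) and 9 to 21. Across all alternatives Foxo1 from warm to cold was 1.40 to 1.80 and passed in each, and Foxo3 was −1.13 to −0.80. When an LT library is left out, the remaining one is assumed to vary like the other groups. The cause of these shifts was not tested.

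Replicate numbers recur across states but mark different animals. Same-numbered libraries deviated together little (26 pairs, r from −0.263 to 0.234, median 0.034; other-numbered 52 pairs, −0.345 to 0.382, median −0.008), and 3 of 14 libraries correlated best with their own number. With replicate number as a block, 2018 units passed from warm to cold instead of 2293. In that fit Tsc1 from warm to cold had an adjusted p of 0.0029 and Foxo1 from IBA to ET 0.0021, and neither passed.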
